A study of Homo sapiens with 38 samples.

Results

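The unedited control cells of 2 human prostate lines were compared: 5 control libraries of RWPE-1 and 9 control libraries of C4-2B, which make up 14 of the 38 samples of the series and 14 of its 36 RNA-seq libraries. The members were taken by the labels alone, as all RWPE-1 controls in the TPM table of that line (TPM is the share of transcripts a gene contributes) and all C4-2B controls in the table of the other line, joined on gene identifier. RWPE-1 is an adult prostate epithelial line that a human papillomavirus made immortal and that does not form tumours. C4-2B is a bone-metastatic, castration-resistant derivative of the LNCaP prostate cancer line. The study asked how a region at 7p15.2 linked to prostate cancer risk acts on HOXA13, and its main comparisons set deletion of that region against control within a line, a HOXA13 vector against eGFP, and chromosome contacts by Hi-C. The contrast between the lines uses the controls of those experiments. In some checks the 3 eGFP libraries of RWPE-1, from transfected and sorted cells, stand in place of its controls.

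Both control groups carried the wild-type genotype and the treatment label of genome editing, so they are controls of an editing experiment rather than untouched parental cells. RWPE-1 cells were grown in keratinocyte serum-free medium, and C4-2B cells in RPMI 1640 with 10% fetal bovine serum. The C4-2B controls are 3 control lines with 3 libraries each. The libraries of a line were averaged on the log scale, so that 5 RWPE-1 libraries were set against 3 line means. The labels do not say whether the 5 RWPE-1 controls are clones or cultures, nor whether the C4-2B control lines are clones. For a repeat of the same contrast, 7 RWPE-1 deletion libraries and 9 C4-2B deletion libraries from 3 clones, labelled m, le5 and ld9, were compared in the same way. Those clones came from 2 colonies that were edited again, and the parental karyotype is given as tetraploid. Each side is 1 parental line, so every p-value below measures spread among cultures or lines of that parent, and cell line, medium, deposited table and library preparation cannot be told apart.

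As background, the prostate gland has an outer basal layer and an inner luminal layer. Basal cells carry keratins 5 and 14, the transcription factor p63 and hemidesmosomes that hold them to the basement membrane. Luminal cells depend on androgen and on factors such as FOXA1 and HOXB13, and they secrete kallikreins such as prostate-specific antigen, the product of KLK3. Most prostate cancers keep the luminal programme and lose the basal cells.

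TPM is corrected for transcript length and scaled to the same total in each library, so it carries no depth for a single library. In the authors' deposited tables of differential expression, normalized counts averaged over control and deletion libraries add up to 32976812 in RWPE-1 and 17527222 in C4-2B. Between 13818 and 14209 genes reached 1 TPM in a RWPE-1 control and between 13661 and 14848 in a C4-2B control. Pairs of RWPE-1 controls correlated at r = 0.962 to 0.989 across the genes tested, pairs of libraries of the same C4-2B line at 0.933 to 0.987, and pairs of libraries of different C4-2B lines at 0.916 to 0.984. A RWPE-1 and a C4-2B library correlated at 0.702 to 0.743. Genes are not independent replicates, and these values carry no test. Library 1 of C4-2B line 3 stood apart, with 28.4% of its TPM in mitochondrially encoded genes against 10.8% to 16.6% in the other 8 C4-2B libraries and 13.7% to 16.2% in RWPE-1. The RWPE-1 controls differed among themselves in interferon genes, as described with those genes, and in others. In all, 343 tested genes had a SD of log2(TPM + 1) over 1 among the RWPE-1 controls, and 162 among the C4-2B line means. FST, an example chosen after its values were seen, was at 174.4, 166.4, 49.04, 65.47 and 51.73 TPM in RWPE-1 controls 1 to 5.

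The 5 marker genes matched the labels of both lines. KRT5, a basal keratin, was at 10310, 10090, 8808, 5962 and 10300 TPM in RWPE-1 controls 1 to 5 and listed at 0 in all 9 C4-2B libraries. KRT14, its partner keratin, was at 5760, 5880, 5080, 2843 and 6151 TPM in RWPE-1, and at 1.61, 1.90 and 3.91 TPM as the lowest, median and highest of the C4-2B libraries. TP63, which encodes p63, was at 117.3, 112.2, 34.02, 65.45 and 80.8 TPM in RWPE-1. In C4-2B its lowest and median libraries were listed at 0 and its highest was at 1.09 TPM. RWPE-1 control 4 was the lowest for both keratins and control 3 the lowest for TP63, yet every RWPE-1 library was far above every C4-2B library.

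KLK3 was listed at 0 in all 5 RWPE-1 controls and ran from 958.2 through a median of 2577 to 3242 TPM in C4-2B. FOXA1, a pioneer factor that opens chromatin, was at 0.01, 0.02, 0.02, 0.04 and 0 TPM in RWPE-1 and at 203.5, 297.9 and 309.6 TPM as the lowest, median and highest of the C4-2B libraries. The groups did not overlap for any of the 5 markers, which held for 44.7% of all genes tested below. On the log2(TPM + 1) scale, C4-2B minus RWPE-1 was -13.12 for KRT5, -10.53 for KRT14, -6.12 for TP63, 11.18 for KLK3 and 8.12 for FOXA1. An exact two-sided permutation test gave p = 0.0357 for each, adjusted 0.0357 over the 5 markers, which is the smallest value that the 56 arrangements of 5 and 3 samples allow. The markers were set beforehand as those of basal and luminal cells, so the test is only a check of the labels. In the authors' deposited tables the mean normalized count of KRT5 was 242000 in the RWPE-1 table and 0.11 in the C4-2B table, and that of KLK3 was 0.591 and 57700. In bulk RNA, fewer cells of a type and less RNA per cell cannot be told apart, for these genes and those that follow.

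**Figure D1:**
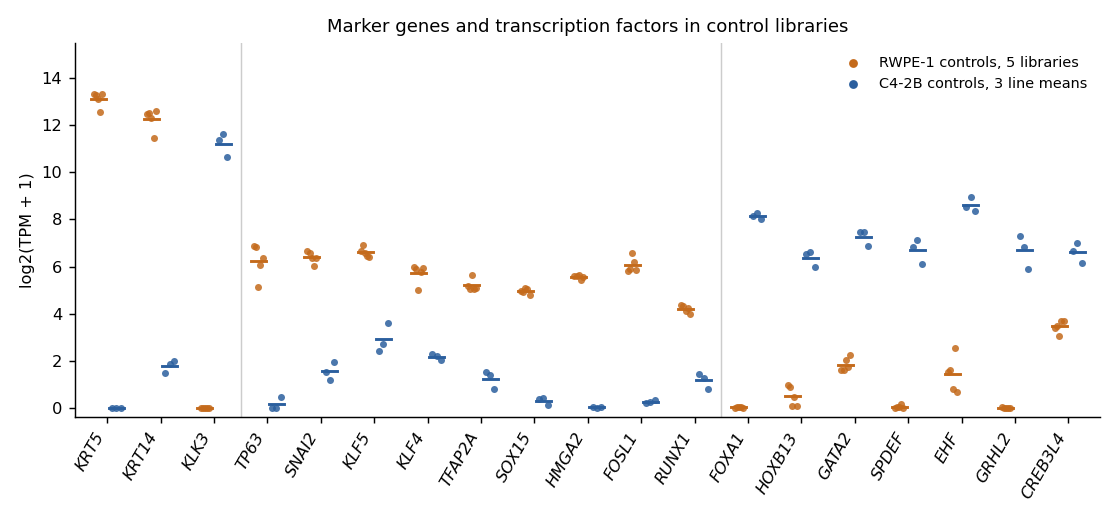
Each point is log2(TPM + 1) of a RWPE-1 control library (orange, 5) or the mean TPM of a C4-2B control line (blue, 3), on the y axis, for the gene named on the x axis, and each short bar is the group mean. KRT5 and KRT14 and the 9 factors from TP63 to RUNX1 sit higher in RWPE-1, KLK3 and the 7 factors from FOXA1 to CREB3L4 sit higher in C4-2B.

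The bases just upstream of 4 genes that separated the lines are shown because they differ in CpG content, the dinucleotide at which vertebrate DNA is methylated. KLK3 and KRT5 are the lineage markers above. GSTP1 encodes a glutathione transferase whose promoter is a known site of methylation in prostate cancer, and CAV1 encodes caveolin, the coat protein of caveolae. Each sequence is the 250 bases before the gene's start from the RefSeq promoter table, written 5′ to 3′ in the direction of the gene, with every CpG in capitals. The positions are on GRCh38.p14, while the deposited values were made on GRCh37, and the sequences were matched by gene symbol. KLK3 lies at chr19:50854665-50854914 on the plus strand, KRT5 at chr12:52520395-52520644 on the minus strand, GSTP1 at chr11:67583562-67583811 on the plus strand and CAV1 at chr7:116524759-116525008 on the plus strand.
KLK3: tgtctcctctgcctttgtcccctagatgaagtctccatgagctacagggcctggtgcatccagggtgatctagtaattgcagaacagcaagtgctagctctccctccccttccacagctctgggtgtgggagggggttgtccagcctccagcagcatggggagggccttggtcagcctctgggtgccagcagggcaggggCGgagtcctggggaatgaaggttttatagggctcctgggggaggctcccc
KRT5: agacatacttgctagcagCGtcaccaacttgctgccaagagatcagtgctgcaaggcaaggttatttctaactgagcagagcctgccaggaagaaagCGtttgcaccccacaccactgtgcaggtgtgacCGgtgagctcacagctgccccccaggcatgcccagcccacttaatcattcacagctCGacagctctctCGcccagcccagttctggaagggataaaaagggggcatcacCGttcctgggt
GSTP1: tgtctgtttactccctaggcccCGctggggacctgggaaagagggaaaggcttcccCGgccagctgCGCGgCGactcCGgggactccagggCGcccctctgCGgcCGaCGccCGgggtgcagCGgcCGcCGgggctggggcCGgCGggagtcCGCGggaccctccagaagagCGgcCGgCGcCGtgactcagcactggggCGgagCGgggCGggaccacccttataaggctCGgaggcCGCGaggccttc
CAV1: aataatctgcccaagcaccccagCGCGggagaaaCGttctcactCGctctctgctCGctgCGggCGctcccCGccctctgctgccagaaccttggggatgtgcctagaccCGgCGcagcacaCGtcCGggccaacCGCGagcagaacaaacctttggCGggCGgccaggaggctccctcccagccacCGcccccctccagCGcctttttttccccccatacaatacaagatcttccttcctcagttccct
The KLK3 window held 1 CpG and the KRT5 window 6, against 28 in GSTP1 and 18 in CAV1. The motif AGAACA, a core of steroid hormone response elements, was searched on both strands and was present in the KLK3 window and also in the CAV1 window. It was found in 12.4% of all 27305 windows of this length in the table. A match is a description of letters and not a measured binding site.

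Across the genome 5508 genes separated the lines, with more of them higher in C4-2B than in RWPE-1. Of 15863 genes with TPM of at least 1 in at least 3 of the 8 samples fitted, 10039 had an adjusted p under 0.05 in limma's moderated test with Benjamini-Hochberg adjustment. A gene was called where it also differed at least 2-fold on the log2(TPM + 1) scale. By that rule 2553 genes, 16.1% of those tested, were higher in RWPE-1 and 2955 genes, 18.6%, were higher in C4-2B. The order turned under median-ratio scaling of the libraries, which gave 2759 and 2673. Differences of at least 16-fold were found for 348 genes higher in RWPE-1 and 202 higher in C4-2B. The median log2 difference of all genes tested was 0.09.

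For 7085 genes, 44.7% of those tested, all 5 RWPE-1 libraries lay on one side of all 9 C4-2B libraries. The median SD of log2(TPM + 1) was 0.197 among the RWPE-1 controls and 0.225 among the C4-2B line means. Without library 1 of C4-2B line 3 the counts were 2489 and 3158. Leaving out a whole C4-2B line lowered the count higher in C4-2B to between 1688 and 2160, because a gene seen only in the 2 lines left could no longer reach the minimum in 3 samples. Likewise a gene under 1 TPM in every sample of 1 side was tested only through the other side, so its direction was all but fixed. With the minimum set at 2 samples in those fits, an alternative added after the data were seen, the count was 2804 to 3441.

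The repeat contrast in deletion libraries called 2563 of 16207 genes higher in RWPE-1, 15.8%, and 3223 higher in C4-2B, 19.9%. It shares no library with the contrast of the controls. Genes higher in RWPE-1 in both numbered 2203, which is 86.3% of the control list and 86.0% of the deletion list. Genes higher in C4-2B in both numbered 2612, or 88.4% and 81.0% of the lists. A single gene was called in both with opposite sign, the unnamed identifier ENSG00000247134, at 0.248 TPM in RWPE-1 controls and 1.50 in C4-2B controls, and it was singled out after its values were seen.

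**Figure D2:**
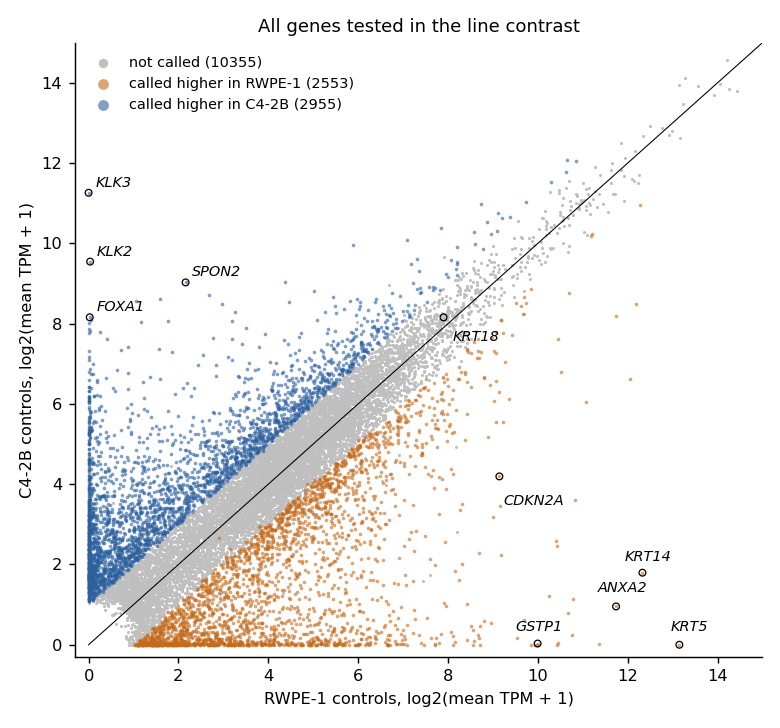
Each point is a gene tested, placed by the mean TPM in RWPE-1 controls (x axis) and C4-2B controls (y axis), both as log2(mean TPM + 1), with 2553 genes called higher in RWPE-1 in orange, 2955 called higher in C4-2B in blue and 10355 not called in grey. KRT5, KRT14 and ANXA2 lie at the lower right, KLK3, KLK2 and FOXA1 at the upper left, and KRT18 near the diagonal.

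Among genes called in both contrasts, without overlap and at 10 TPM or more in the higher line, the 20 largest differences on the RWPE-1 side ran from -13.12 for KRT5 to -8.40 for SFN, a cell cycle adaptor of stratified epithelia. ANXA2 and its partner S100A10, which form a membrane-binding complex, were at 3424 and 1207 TPM in RWPE-1 and at 0.938 and 1.33 TPM in C4-2B. TMSB4X, the actin-sequestering thymosin, was at 1622 and 0.727 TPM. FGFBP1, which releases fibroblast growth factors from the matrix, was at 973 TPM and listed at 0 in C4-2B. S100A6, a calcium-binding protein, was at 1325, 1154, 1446, 1068 and 1875 TPM in RWPE-1 and listed at 0 in every C4-2B library.

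On the C4-2B side the 20 largest differences ran from 11.18 for KLK3 to 6.56 for STEAP1. They held the kallikreins KLK2 and KLK4, the androgen-regulated protease TMPRSS2, the secreted glycoprotein AZGP1 and the matrix protein SPON2. KLK2 was at 0.12 TPM in RWPE-1 control 1 and listed at 0 in the other 4, and at 189.8, 766.9 and 1067 TPM as the lowest, median and highest C4-2B library. NCAM2, a neural adhesion molecule, was at 160 TPM and NETO1, a receptor auxiliary subunit, at 142 TPM in C4-2B. EEF1A2, the translation elongation factor of muscle and neurons, was at 1.07 TPM in RWPE-1 and 374 in C4-2B, and ANK3, which anchors membrane proteins, at 0.322 and 194 TPM.

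**Figure D3:**
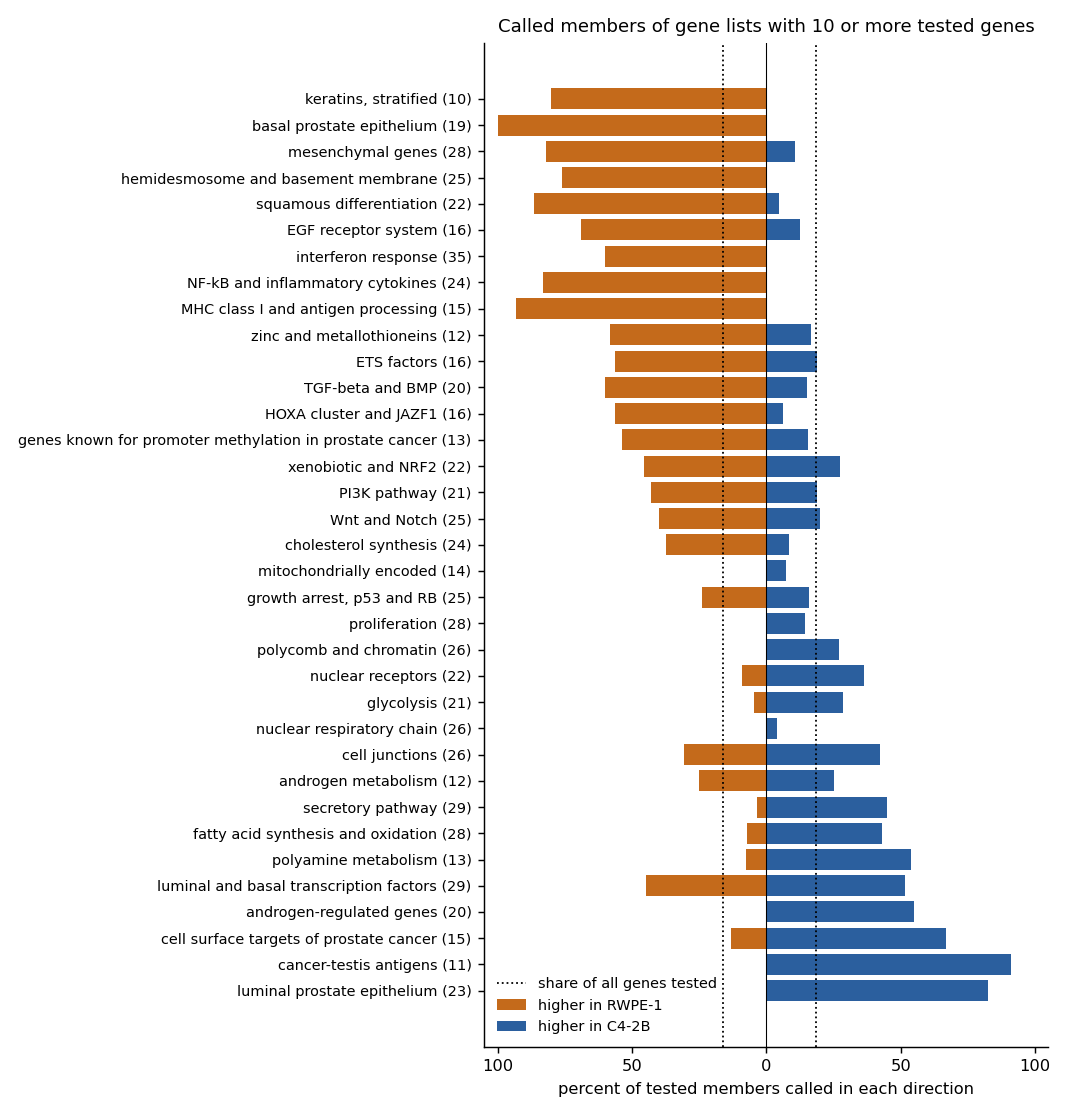
For each gene list with 10 or more tested members (number tested in brackets), bars give the percent of tested members called higher in RWPE-1 (left, orange) and higher in C4-2B (right, blue), and dotted lines mark 16.1% and 18.6%, the shares of all genes tested. Lists are ordered by their median log2 difference, from stratified keratins at -5.01 to the luminal list at 5.95.

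Transcription factors split into a RWPE-1 block and a C4-2B block. Of 29 tested factors of the luminal and basal lists, 13 were higher in RWPE-1, 15 were higher in C4-2B and 1 was not called. Without 1 C4-2B line, where genes seen only in the 2 lines left fall under the minimum of 3 samples, 22 were tested, 13 and 8 were called and the median of 1.49 became -1.85 to -1.77. At a minimum of 2 samples it was 1.42 to 1.59. On the luminal side HOXB13, a posterior homeobox factor of the prostate, was at 0.94, 0.85, 0.07, 0.37 and 0.05 TPM in RWPE-1 and 25.3, 92.35 and 100.7 TPM in C4-2B. The lowest C4-2B library was still above the highest RWPE-1 control, a separation seen in 1 direction or the other for 44.7% of all genes tested. GATA2, a zinc finger factor, averaged 2.64 TPM in RWPE-1 and 156 in C4-2B, and the ETS factors SPDEF and EHF 0.038 and 107, and 2.02 and 394.

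GRHL2, which drives epithelial junction genes, was at 0.02, 0, 0, 0.01 and 0 TPM in RWPE-1 and at 43.79, 101.9 and 204.6 TPM as the lowest, median and highest C4-2B library. Every RWPE-1 control was at or under 0.02 TPM for it, while the eGFP-transfected RWPE-1 libraries averaged 3.24 TPM. The basal factors higher in RWPE-1 included SNAI2 at 84.3 TPM against 2.01, KLF5 at 96.7 against 6.99, TFAP2A at 36.2 against 1.42, SOX15 at 30.4 against 0.246, FOSL1 at 67.9 against 0.204 and the chromatin protein HMGA2 at 46.4 against 0.0133. All 28 called factors were called with the same sign in the repeat contrast.

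The luminal list had 23 tested members, of which 19 were higher in C4-2B and none in RWPE-1, with a median log2 difference of 5.95. Members that reached the minimum only through C4-2B could hardly be called the other way. Without any 1 C4-2B line 8 members were tested, 4 were higher in C4-2B and the median was 1.49 to 1.90, and at a minimum of 2 samples these were 23, 19 and 5.82 to 6.09. With the eGFP libraries in place of the controls 2 members, KRT8 and PMEPA1, were higher in RWPE-1. The 4 that were not called were KRT8, KRT18, RDH11 and PMEPA1. KRT18, a keratin of simple epithelia, was at 232.5, 212.4, 267.8, 294.2 and 183.6 TPM in RWPE-1 and at 125.5, 308.2 and 330.4 TPM as the lowest, median and highest C4-2B library. Its groups overlapped, with a log2 difference of 0.23 ± 0.19 (SE) and an adjusted p of 0.336 in limma. KRT8 overlapped as well, at 348 and 276 TPM on average, and RWPE-1 control 5 was the lowest at 144.2 TPM. KRT8 and KRT18 are often used as luminal markers, and in the control libraries they did not separate the groups. Against the eGFP libraries the log2 difference of KRT8 was -1.312 (adjusted p = 1.397e-05 in limma).

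Of 20 tested androgen-regulated genes, 11 were higher in C4-2B, none was higher in RWPE-1, 9 were not called, and the median was 1.50. SORD, sorbitol dehydrogenase, was at 42.4 and 407 TPM and SLC45A3, a prostate transporter, at 0.828 and 42.2 TPM, while FKBP5, a hormone-induced chaperone partner, was at 223 TPM in RWPE-1 and 134 in C4-2B and TSC22D3 at 103 and 83.0 TPM, and neither was called. FKBP5 and TSC22D3 are also glucocorticoid targets, and whether this bears on their values was not tested. NR3C1, the glucocorticoid receptor, was at 38.3, 34.86, 33.6, 32.39 and 35.47 TPM in RWPE-1 and between 0 and 0.07 TPM in C4-2B. Of 22 nuclear receptors tested, 2 (9.09%) were higher in RWPE-1 and 8 (36.4%) in C4-2B, beside 16.1% and 18.6% of all genes tested. The second count was 4 to 5 of 18 without 1 C4-2B line and 8 to 9 of 22 at a minimum of 2 samples. ESR1 and PGR were under 0.1 TPM on average in both lines.

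Among 15 tested surface targets of prostate cancer, 10 (66.7%) were higher in C4-2B and 2 (13.3%) in RWPE-1, a median of 4.07. The shares of all genes tested were 18.6% and 16.1%, and the second count was under its share. Here too, members that reached the minimum only through C4-2B could hardly be called the other way. Without any 1 C4-2B line 8 were tested, 3 were higher in C4-2B and the median was 0.085 to 0.20, and at a minimum of 2 samples these were 15, 10 and 3.80 to 4.45. STEAP1 and STEAP2, metalloreductases of the prostate surface, were at 171 and 127 TPM in C4-2B and at 0.840 and 0.0640 TPM in RWPE-1. MUC1 was at 11.1 and 3.09 TPM, but its call (adjusted p = 0.0412 in limma) was lost without RWPE-1 control 1, 2 or 4 or C4-2B line 1 or 3, with adjusted p from 0.0673 to 0.149, and CD276 was at 76.6 and 76.8 TPM.

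The basal programme lay on the RWPE-1 side. All 19 tested basal genes were higher in RWPE-1, with a median of -4.86, and all 19 were called again in the repeat contrast. Members that reached the minimum only through RWPE-1 could hardly be called the other way, and the repeat contrast used the same minimum. This limit holds as well for the lists below that lie mostly on the RWPE-1 side. KRT17 was at 2646 TPM in RWPE-1 and 0.0111 in C4-2B. Of 10 stratified keratins tested, 8 were higher in RWPE-1, and the remaining 2 were not called, KRT10 among them at 48.9 and 65.0 TPM. KRT6A shares long stretches with KRT6B and KRT6C, so its 1391 TPM is uncertain among those copies. KRT7, a keratin of simple ductal epithelia, also sided with RWPE-1, at 1739 and 0.187 TPM.

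Genes of hemidesmosomes and the basement membrane followed, with 19 of 25 higher in RWPE-1, none higher in C4-2B and a median of -3.53. COL17A1, the transmembrane collagen of hemidesmosomes, was at 383 and 0.0600 TPM, ITGB4, its integrin partner, at 578 and 3.72 TPM, and ITGA3 at 303 and 2.07 TPM. LAMA3 and LAMC1, laminin chains, were not called, at 43.2 and 49.1 TPM and at 110 and 133 TPM. Of 22 tested squamous differentiation genes, 19 were higher in RWPE-1, and 17 more of that list were under the minimum of the test. S100A2 was at 1764 and 1.19 TPM, S100A9 at 744 and 0.127 TPM. CNFN, a cornified envelope protein at 2.79 and 12.5 TPM, was the 1 tested member higher in C4-2B.

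RWPE-1 cells combined these basal genes with genes usually read as mesenchymal, and their controls were lower for several junction genes of luminal epithelium. Of 28 mesenchymal genes, 23 (82.1%) were higher in RWPE-1, 3 (10.7%) were higher in C4-2B and the median was -4.29. The shares of all genes tested were 16.1% and 18.6%. Members under 1 TPM in C4-2B were tested only through RWPE-1. VIM, ZEB1, TWIST1 and CDH1, CDH2, CLDN7 and ESRP1 below lie outside the rule by which genes are named and were chosen after their values were seen. VIM, the intermediate filament vimentin, was at 1867, 1777, 1845, 1713 and 1913 TPM in RWPE-1 and 8.03, 11.76 and 14.35 TPM in C4-2B. The factors ZEB1 and TWIST1 were at 10.7 and 18.4 TPM against 0.0944 and 0.00444 TPM. SPARC, a matrix protein, was at 826 and 0.523 TPM. SNAI1, COL6A2 and TAGLN were the 3 higher in C4-2B, at 0.276 and 3.67, 1.27 and 13.6, and 2.12 and 5.21 TPM, and the TAGLN call was lost without RWPE-1 control 3 or 4 or C4-2B line 1 or 3, among other settings. With 3 sorted, eGFP-transfected RWPE-1 libraries in place of the controls, SNAI1 turned to the RWPE-1 side at -0.68 and TAGLN to -0.17.

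Cell junction genes were divided, with 8 of 26 (30.8%) higher in RWPE-1 and 11 (42.3%) higher in C4-2B, beside 16.1% and 18.6% of all genes tested. Without 1 C4-2B line 6 to 7 of 21 were higher in C4-2B, and at a minimum of 2 samples 11 to 12 of 26. CDH1, which encodes E-cadherin, was at 7.01, 10.67, 16.32, 4.22 and 2.71 TPM in RWPE-1 and 73.18, 218.1 and 276.0 TPM in C4-2B, a log2 difference of 4.55 ± 0.48 (SE, adjusted p = 2.95e-05 in limma). EPCAM, an epithelial adhesion molecule, was at 0.05, 0.08, 0.09, 0.36 and 0.15 TPM in RWPE-1 and 66.09, 101.2 and 113.5 TPM in C4-2B. Neither gene overlapped between the control groups, which held for 44.7% of all genes tested. In the eGFP-transfected RWPE-1 libraries EPCAM averaged 17.1 TPM. The claudins CLDN3, CLDN4 and CLDN7 and the splicing factor ESRP1 were on the same side, with 67.0, 107, 200 and 45.3 TPM in C4-2B and 0, 0.844, 5.85 and 0.0680 TPM in RWPE-1. CDH3, the P-cadherin of basal cells, was at 84.7 and 3.25 TPM, and CDH2, N-cadherin, at 9.75 TPM in RWPE-1 and listed at 0 in C4-2B. CTNNB1 and CTNND1, the catenins that all of these cadherins bind, were not called, at 111 and 101 TPM and at 64.9 and 70.8 TPM.

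Of 7 caveolar genes, 6 were higher in RWPE-1, with a median of -5.11. Members under 1 TPM in C4-2B were tested only through RWPE-1. CAV1 was at 779.6, 799.2, 1543, 856.0 and 618.1 TPM in RWPE-1 and listed at 0 in all 9 C4-2B libraries, and CAV2 was at 276 and 0.157 TPM. PACSIN2, which shapes the caveolar neck, was not called, at 26.9 and 50.8 TPM.

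Growth factor ligands and receptors differed between the lines. Of 16 tested genes of the EGF receptor system, 11 (68.8%) were higher in RWPE-1 and 2 (12.5%) in C4-2B, beside 16.1% and 18.6% of all genes tested. The ligands AREG and EREG were at 222 and 26.1 TPM in RWPE-1, against 0.0233 TPM for AREG and 0 listed for EREG in C4-2B. DUSP6, a feedback phosphatase of the pathway, was at 227 and 0.208 TPM. ERBB3, a receptor of the family, was at 1.98, 1.00, 1.66, 0.27 and 1.81 TPM in RWPE-1 and at 46.46, 74.86 and 90.39 TPM in C4-2B, and ERBB2 was not called, at 24.0 and 28.7 TPM.

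In the TGF-beta and BMP list, 12 of 20 were higher in RWPE-1 and 3 in C4-2B. TGFBR2, the receptor that binds the ligand, was at 104 and 0.184 TPM, TGFB1, the ligand, at 56.1 and 0.313 TPM, and the inhibitor FST at 101 and 0.0778 TPM. SMAD6, an inhibitor, and ID2, a BMP target, were higher in C4-2B, at 2.17 and 21.1 TPM and at 0.342 and 20.0 TPM. Of 25 Wnt and Notch genes, 10 (40.0%) were higher in RWPE-1 and 5 (20.0%) in C4-2B, the second near the 18.6% of all genes tested. The RWPE-1 side held the secreted Wnt inhibitors DKK1, DKK3 and SFRP1, at 177, 121 and 211 TPM against 0 listed, 0.0111 and 0.130 TPM. Of 16 ETS factors, 9 (56.2%) were higher in RWPE-1, ETS1 at 31.0 and 0.124 TPM and ETV4 at 29.2 and 0.0700 TPM among them. The 3 higher in C4-2B made up 18.8%, near the 18.6% of all genes tested.

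Interferon and antigen presentation genes were higher in RWPE-1, but at levels that varied widely among its controls. The summed TPM of the 35 interferon genes was 8746, 8316, 798.5, 4357 and 1208 in RWPE-1 controls 1 to 5, and 161.6, 325.1 and 358.0 as the lowest, median and highest of the C4-2B libraries. Controls 1 and 2 were highest and controls 3 and 5 were lowest, though all were above C4-2B. Of the 35 genes, 21 were higher in RWPE-1, none was higher in C4-2B, and the median was -2.97. Without 1 RWPE-1 control the count ranged from 19 (without control 1, 2 or 4) to 31 (without control 3), and without 1 C4-2B line from 17 to 19, or 15 to 18 at a minimum of 2 samples. With all 9 C4-2B libraries taken as samples it was 31, and with the eGFP libraries in place of the controls 35. In the repeat contrast 16 of the 35 were higher in RWPE-1 and 3 in C4-2B, with a median of -1.61.

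IFIT1, an antiviral RNA-binding protein, showed the spread, at 264.0, 254.3, 3.88, 106.5 and 18.14 TPM in RWPE-1 and at most 0.35 TPM in C4-2B, with a log2 difference of -5.66 ± 1.23 (SE, adjusted p = 0.00297 in limma). Of 15 genes of MHC class I and antigen processing, 14 were higher in RWPE-1, and 8 were called again in the repeat contrast. The immunoproteasome genes PSMB8 and PSMB9 were at 43.3 and 31.2 TPM against 0.332 and 0.0733 TPM, while PSMB10 was not called, at 28.7 and 37.0 TPM. The authors' mean normalized count of PSMB10 was 82.98 in the RWPE-1 table and 10.5 in the C4-2B table. For PSMB8 these were 791.7 and 3.846, so the TPM of PSMB10 is uncertain. Inflammatory genes had 20 of 24 higher in RWPE-1 and none in C4-2B, with a median of -2.92. Of the 30 matched, 11 were at 0 in all C4-2B libraries and could be tested only through RWPE-1. SAA1, an acute phase protein, was at 469.9, 462.2, 51.45, 192.1 and 197.4 TPM in RWPE-1 and listed at 0 in C4-2B. IL1A and IL18, epithelial alarm cytokines, were at 59.8 and 98.3 TPM in RWPE-1, IL1A listed at 0 and IL18 at 0.0178 TPM in C4-2B. Class I genes and SAA1 have near-identical copies, so their TPM is uncertain among them.

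Metabolic lists held members on both sides. In the fatty acid list, 12 of 28 (42.9%) were higher in C4-2B and 2 (7.14%) in RWPE-1, with a median of 0.85. The shares of all genes tested were 18.6% and 16.1%. ELOVL7, an androgen-regulated elongase, was at 0.550 and 115 TPM, and ACSL1, which activates fatty acids, at 19.5 and 192 TPM. ACSL4, which favours arachidonic acid, was at 65.5 TPM in RWPE-1 and 2.36 in C4-2B, and SCD, the desaturase, was not called, at 390 and 392 TPM. Cholesterol synthesis leaned the other way, with 9 of 24 (37.5%) higher in RWPE-1 and 2 (8.33%) in C4-2B. HMGCS1, the synthase before the rate-limiting step, was at 240 and 47.5 TPM.

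Of 13 polyamine genes, 7 (53.8%) were higher in C4-2B and 1 (7.69%), the oxidase SMOX, in RWPE-1, beside 18.6% and 16.1% of all genes tested. ODC1 and AMD1, the committing enzymes of the pathway, were at 107 and 433 TPM and at 65.4 and 373 TPM. Of 29 secretory pathway genes, 13 (44.8%) were higher in C4-2B and 1 (3.45%) in RWPE-1. CREB3L4, a secretory transcription factor, was at 10.1 and 99.2 TPM and GOLM1 at 16.7 and 70.0 TPM. In glycolysis 6 of 21 (28.6%) were higher in C4-2B, LDHB at 470 and 1475 TPM among them. The 1 higher in RWPE-1 was the lactate exporter SLC16A3, at 256 and 85.6 TPM. LDHA was not called, at 1475 and 1506 TPM. The nuclear respiratory chain had 1 of 26 called and the mitochondrially encoded genes 1 of 14, shares below the 18.6% of all genes tested.

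GSTP1, a detoxification gene, was among the 20 largest differences. It was at 1006, 933.7, 1020, 977.3 and 1161 TPM in RWPE-1, and its C4-2B libraries ran from 0 through a median of 0 to 0.12 TPM. The log2 difference was -9.96 ± 0.094 (SE, adjusted p = 3.98e-11 in limma). GSTM3, another glutathione transferase, was at 19.1 TPM in RWPE-1 and 111 in C4-2B, and HMOX1, which degrades heme, at 2.03 and 27.3 TPM. ALDH3A1, an aldehyde dehydrogenase, was at 127 and 0.283 TPM. In all, 10 of 22 members (45.5%) of the xenobiotic and NRF2 list were higher in RWPE-1 and 6 (27.3%) in C4-2B. The shares of all genes tested were 16.1% and 18.6%. NQO1 was not called, at 225 and 246 TPM. Of 12 tested genes of the zinc and metallothionein list, 7 (58.3%) were higher in RWPE-1 and 2 (16.7%) in C4-2B, with a median of -1.61. The second share was under that of all genes tested. The repeat contrast gave 4 and 2 and a median of -0.69. MT2A and MT1E, metallothioneins that bind zinc and copper, were higher in RWPE-1, MT2A at 4235 and 96.8 TPM and MT1E at 1010 TPM and listed at 0. The zinc transporters SLC39A8 and SLC30A4 were higher in C4-2B, at 12.6 and 117 TPM and at 2.63 and 37.3 TPM.

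CDKN2A, which encodes the cell cycle inhibitor p16, was at 571.5, 527.5, 512.9, 664.0 and 547.0 TPM in RWPE-1 and at 6.24, 21.27 and 27.06 TPM in C4-2B. CDKN1B, the inhibitor p27, was at 14.1 and 64.0 TPM, and GDF15, a stress cytokine, at 4.88 and 148 TPM. In the p53 and RB list 6 of 25 were higher in RWPE-1 and 4 in C4-2B, and the first share, 24.0%, stood beside 16.1% of all genes tested and the second was under 18.6%. Of 28 proliferation genes, 4 were higher in C4-2B, CDK1 at 92.6 and 349 TPM among them, none was higher in RWPE-1, and the median was -0.03. That share, 14.3%, was under the 18.6% of all genes tested. With the eGFP libraries in place of the controls 10 of the 28 were higher in C4-2B, with a median of 0.55.

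HOX genes, which mark position along the body axis, differed cluster by cluster. In HOXC all 6 tested genes were higher in C4-2B (3 of 3 tested without 1 C4-2B line, 6 of 6 at a minimum of 2 samples). In HOXD all 5 tested were higher in RWPE-1. The HOXD list summed to at most 1.7 TPM in a C4-2B library. Its tested genes reached the minimum through RWPE-1, so their direction was all but fixed. HOXD10 was at 36.29, 37.27, 30.7, 38.53 and 41.24 TPM in RWPE-1 and listed at 0 in all C4-2B libraries. HOXC6 was at 2.49, 2.41, 0.04, 0.43 and 0 TPM in RWPE-1 and 19.64, 21.51 and 26.6 TPM in C4-2B. HOXD11 followed HOXD10 at 29.8 TPM and 0 listed, and HOXC12 was listed at 0 in RWPE-1 and at 5.90 TPM in C4-2B.

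In the HOXA cluster with JAZF1 and its non-coding genes, 9 of 16 (56.2%) were higher in RWPE-1 and 1 (6.25%) in C4-2B. The shares of all genes tested were 16.1% and 18.6%. HOXA9 was at 52.01, 50.07, 37.06, 51.36 and 47.03 TPM in RWPE-1 and 0.56, 1.17 and 1.63 TPM in C4-2B. HOXA10, its neighbour, went the other way, at 10.2, 11.01, 6.62, 11.54 and 6.65 TPM in RWPE-1 and 18.82, 34.86 and 46.82 TPM in C4-2B. Its log2 difference was 1.77 ± 0.23 (SE, adjusted p = 0.000123 in limma) and fell under 2-fold, to 0.97, against the eGFP libraries. HOXA13, the gene the study is about, was low in both lines, at 0.90, 0.91, 0.92, 2.41 and 0.65 TPM in RWPE-1 and 0.76, 1.13 and 1.99 TPM in C4-2B. The groups overlapped, with a log2 difference of 0.10 ± 0.24 (SE, adjusted p = 0.726 in limma), and control 4 was the highest RWPE-1 library. In the deletion libraries the same difference was -2.18. JAZF1, a neighbouring gene on 7p15.2, was at 11.25, 7.04, 4.81, 6.32 and 3.93 TPM in RWPE-1 and 0.61, 1.15 and 2.41 TPM in C4-2B. HOTAIRM1 and HOXA10-AS are transcribed against HOXA genes. The kit kept strand, but it is not stated whether counting did, so their 24.0 and 10.5 TPM in RWPE-1 may hold reads of the opposite strand.

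**Figure D4:**
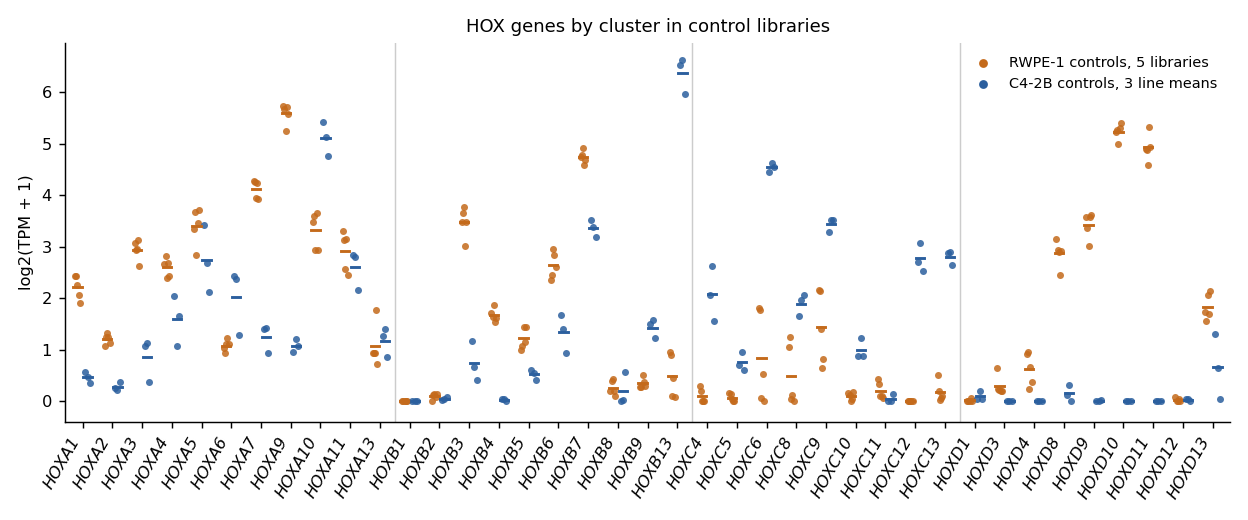
Points are log2(TPM + 1) of RWPE-1 control libraries (orange, 5) and of the mean TPM of C4-2B control lines (blue, 3) on the y axis, for the HOX genes of the HOXA, HOXB, HOXC and HOXD clusters in numerical order on the x axis, with group means as short bars. HOXA9 and HOXD10 stand high in RWPE-1, HOXA10, HOXB13 and HOXC6 in C4-2B, and HOXA13 overlaps.

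Cancer-testis antigens, mostly X-linked genes that are normally silent outside the germ line, were higher in C4-2B, and 17 of the 21 listed were at 0 in all RWPE-1 controls. Of 11 tested, 10 were higher in C4-2B, none in RWPE-1, and the median was 5.52. A gene at 0 in RWPE-1 reaches the minimum only through C4-2B, so its direction was fixed by the filter. Without any 1 C4-2B line 2 were tested, 1 was higher in C4-2B and the median was 1.36 to 1.65, and at a minimum of 2 samples 10 to 11 were higher, with a median of 5.37 to 5.67. PAGE1 was at 258 TPM, MAGEA3 at 95.6 and GAGE1 at 232 TPM in C4-2B, and all were listed at 0 in RWPE-1. These families have near-identical copies. For GAGE1 the authors' deposited table of C4-2B gives a mean normalized count of 0.118 beside that TPM, so how much belongs to this copy is uncertain. KDM6A, an X-linked histone demethylase, was at 10.38, 9.16, 9.15, 14.99 and 9.72 TPM in RWPE-1 and 56.14, 78.84 and 157.5 TPM in C4-2B. It led the 7 of 26 polycomb and chromatin genes (26.9%, beside 18.6% of all genes tested) that were higher in C4-2B. None was higher in RWPE-1.

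Most markers of other cell types were under the minimum of the test. Of 10 immune markers 8 were under the minimum, and CD3D, MS4A1 and TYROBP were listed at 0 throughout. The other 2, CD68 and CD14, were higher in RWPE-1, at 29.0 and 1.20 TPM and at 6.84 and 0.234 TPM. The immune list summed to 11.84 to 61.03 TPM in RWPE-1 and to 0.48 to 5.99 TPM in C4-2B. Of 11 fibroblast and endothelial markers matched, 10 were under the minimum. That list summed to 3.09 to 9.45 TPM in RWPE-1 and 5.36 to 19.93 TPM in C4-2B. In RWPE-1 PDGFRA was at 0.274 TPM and DCN and LUM were listed at 0, and the part of other cells in the mesenchymal genes was not tested. Among 16 neuroendocrine markers 5 were tested, and the list summed to 5.58 to 28.3 TPM in RWPE-1 and 34.15 to 71.92 TPM in C4-2B. DDC, which makes amine transmitters, was at 0.0280 and 39.5 TPM, while CHGA was at 0.0120 and 0.0567 TPM.

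The promoters of genes that were on in one line and off in the other are described by their CpG content. Being on was set at 1 TPM or more in every control library of a line and off at under 0.1 TPM in every library of the other. By that rule 275 genes were on in RWPE-1 alone and 312 in C4-2B alone, of which 203 and 201 are protein-coding. An upstream window was taken as CpG-dense where the ratio of observed to expected CpG was at least 0.6 and G and C made up at least 50%. Of genes on in RWPE-1 alone that matched a window, 50.0% of 166 were CpG-dense, and of those on in C4-2B alone 45.8% of 179. The share was 77.4% of the 10855 genes tested that matched and 44.9% of all windows of the table. Genes called higher in RWPE-1 gave 67.2% and genes called higher in C4-2B 70.9%. These shares are descriptions, with no test, and the window sequences of GSTP1 and CAV1 above are examples of CpG-dense promoters of genes that are off in C4-2B or nearly so.

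The difference between the lines was also uneven along the genome. The median log2 difference of the 379 tested genes of chromosome 20 was -0.570, and it stayed between -0.605 and -0.486 against each RWPE-1 control taken singly. On that chromosome 110 genes were higher in RWPE-1 and 30 in C4-2B. Chromosome 9 had a median of -0.318 over 585 genes. Chromosome 22, at 0.595 over 362 genes, chromosome 8, at 0.457 over 473, and chromosome X, at 0.338 over 485, lay on the C4-2B side. Against single RWPE-1 controls chromosome 22 ranged from 0.456 to 0.871, chromosome 8 from 0.395 to 0.506, chromosome X from 0.284 to 0.398 and chromosome 9 from -0.415 to -0.253. Over single C4-2B lines chromosome 22 ranged from 0.312 to 0.749 and chromosome 20 from -0.809 to -0.434.

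The deletion libraries gave -0.594 for chromosome 20, -0.342 for chromosome 9, 0.386 for chromosome 8 and 0.312 for chromosome X. They gave 0.287 for chromosome 22, and on chromosome 5 a median of 0.301 where the controls gave -0.150. The difference between the contrasts was not tested. DNA copy number was not analysed here, and its part in these medians was not tested.

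**Figure D5:**
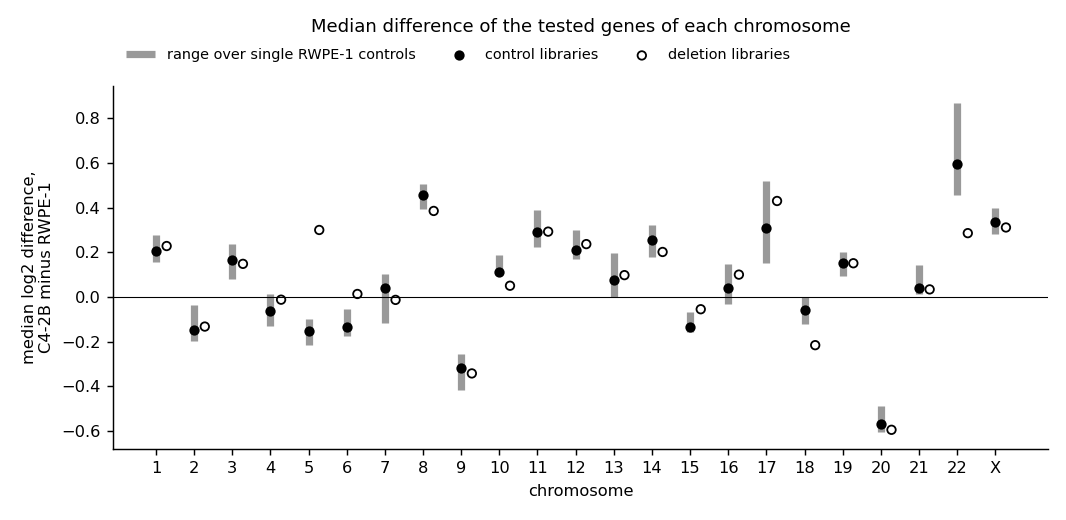
The y axis is the median log2 difference, C4-2B minus RWPE-1, of the tested genes of each chromosome on the x axis, as filled points for control libraries with a grey bar for the range over single RWPE-1 controls, and open points for deletion libraries. Chromosome 20 lies lowest at -0.570 and chromosome 22 highest at 0.595, and chromosome 5 lies on opposite sides of 0 in the control and deletion libraries.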

How the data were processed

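The samples, gene lists and comparisons were chosen with earlier results of these data known. The submitters' processing notes name RSEM 1.3.0, STAR 2.5.2b, Trimmomatic 0.35 and FastQC, as well as DESeq2 1.14.1 and featureCounts 1.5.1, on GRCh37, with no link from tool to table. The authors deposited TPM for 60252 genes, 18 libraries in each of 2 tables with the same identifiers. The authors' deposited mean normalized counts, a signal averaged over control and deletion libraries, were used as depth. For KRT5, KLK3, GAGE1, PSMB8 and PSMB10 they were set beside TPM. The labels state stranded kits, and whether counting used strand is not given in the sources used here.

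Differences were fitted with limma 3.58.1 in R 4.3.3 (two-sided; lmFit, then eBayes with a trend in mean expression) on log2(TPM + 1), which understates changes of low genes, for genes at 1 TPM or more in at least 3 samples fitted. Libraries of a C4-2B line were averaged on the log scale. Genes were called at adjusted p under 0.05 (Benjamini-Hochberg) and at least 2-fold. The fit was tested on simulated data with known changes. Of 842 list symbols 839 matched the tables, and 38915 of 60252 genes had a chromosome by symbol in RefSeq.

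Genes named in the text are the 5 markers, HOXA13 and JAZF1, the 20 largest differences each way among genes called in both contrasts without overlap and at 10 TPM or more, every tested lineage factor, and from each list the 3 largest called each way and 2 small differences at 10 TPM or more. Other names serve as examples of a list and were chosen after their values were seen. Some genes that this rule names are not reported here. Genes are described as listed at 0 because MT-ATP8, a gene every cell uses, is also at 0 in all libraries. Counts of genes carry no interval, since TPM holds no counts, and the depth of single libraries is unknown.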

Additional observations from a re-analysis of the deposited data

Results flagged for a closer look

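Among 140 named genes with a signal in the RWPE-1 controls, 13 had 1 of the 5 control libraries far from the other 4. The measure is the gap to the nearest library divided by the whole range on the log2(TPM + 1) scale, with 0.71 as the critical value, and chance marks about 1 in 20 groups.

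Control 4 was the library apart for 5 genes. It was lowest for KRT5, where the gap was 0.712 of the range, at 5962 TPM against 8808 to 10310, and for KRT14 at 0.752, at 2843 TPM against 5080 to 6151. It was highest for HOXA13 at 0.791, with 2.41 TPM against 0.65 to 0.92, for GDF15 at 0.801, with 10.21 TPM against 2.98 to 3.89, and for KDM6A at 0.748, with 14.99 TPM against 9.15 to 10.38.

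Control 3 was apart for 4 genes. It was lowest for ALDH3A1 at 0.854, with 30.37 TPM against 131.1 to 168.0, and for TGFB1 at 0.726, with 49.79 TPM against 56.18 to 58.79. It was highest for TFAP2A at 0.751, with 48.74 TPM against 31.61 to 35.22, and for ETS1 at 0.736, with 42.96 TPM against 26.01 to 29.72.

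Control 5 was lowest for KRT8 at 0.727, with 144.2 TPM against 335.3 to 459.8. In the remaining 3 genes a single library held all of a trace signal, so the gap was 1.0 of the range. These were KLK2 at 0.12 TPM in control 1, NETO1 at 0.01 TPM in control 2 and CHGA at 0.06 TPM in control 5.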

How the results depend on the processing

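The sides compared are single parental lines in different media and tables, TPM hides depth, and RWPE-1 controls vary in interferon genes and others. Of 145 genes named and tested, 130 kept their call under every alternative that tested them. With the stated counts at 2553 and 2955 (RWPE-1, C4-2B), a pseudocount of 5 gave 1543 and 1564, no fold threshold 4454 and 5585, and at least 4-fold 1179 and 1052. In the deletion libraries a pseudocount of 5 gave 1527 and 1634. Leaving out 1 RWPE-1 control or 1 C4-2B line gave 2340 to 2613 and 1688 to 3001. In the deletion libraries, leaving out 1 library or clone gave 2531 to 2586 and 1955 to 3239. At a minimum of 2 samples, leaving out 1 C4-2B line gave 2338 to 2614 and 2804 to 3441. The cause of the low RWPE-1 count was not tested. Without 1 deletion clone the count higher in C4-2B was 1955 to 1983. In those fits a gene seen only in the 2 clones left could not reach the minimum in 3 samples. How much of the fall this makes up was not tested. With the eGFP libraries in place of the controls the counts were 3152 and 3282, and LAMA3 became -2.20, SNAI1 -0.68 and TAGLN -0.17, where the cause was not tested. Same-numbered samples deviated with correlations of -0.02, -0.0569 and -0.0228, within the -0.151 to 0.145 of differently numbered ones. The numbers were not taken as pairs, and a shared batch was not tested. With the number as a replicate block the counts were 2559 and 3078, and the calls of TAGLN and SLC16A3 were lost.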
